A study of Mus musculus with 6 samples.

Results

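Transcripts of 10 genes of the NRF2 antioxidant pathway were followed in livers that lack AEG-1 in hepatocytes. The 10 genes were listed by name, with earlier results of these data known. All 10 were found among the 46983 genes of the deposited count table. They comprise the transcription factor gene Nfe2l2 and its inhibitor Keap1, the quinone reductase Nqo1, the glutathione genes Gclc, Gclm and Gsr, the thioredoxin-system genes Txnrd1 and Srxn1, the NADPH-producing enzyme G6pdx, and catalase, Cat. The tested livers came from AEG-1DHEP mice, in which AEG-1 (astrocyte elevated gene 1, encoded by Mtdh) is deleted in hepatocytes only. The control livers came from AEG-1fl/fl mice, which carry the conditional allele undeleted and which the sample titles call WT. Both groups were 12 weeks old, on a C57BL/6 background, fed chow and not treated. RNA came from whole liver, so the other cell types of a knockout liver still have the gene, and the Cre driver is not given in the sources used here. Control replicates 1 and 2 had the same count in all 46983 rows. Since they thus differed by less than sampling noise, they counted as 1 sample, leaving 3 knockout libraries and 2 distinct control libraries, control replicates 1 and 3.

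NRF2, the product of Nfe2l2, is a transcription factor that is made continuously and destroyed continuously. KEAP1 binds it and hands it to a ubiquitin ligase built on CUL3. When oxidants or electrophiles modify KEAP1, NRF2 escapes, enters the nucleus and, paired with a small MAF protein, binds antioxidant response elements near its target genes. In liver these targets supply glutathione, reduced thioredoxin and NADPH and detoxify reactive compounds. NRF2 activity is set largely at the protein level, and the present data measured RNA alone.

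Library totals were 29557477 to 33685670 counts in the knockout group and 30819997 to 30965664 in the control group. Mtdh, the targeted gene, had 89, 74 and 76 counts in the knockout libraries, against 1529 and 1612 in the control libraries, so each distinct library went with its label. The 10 hepatocyte markers, Alb among them, summed to 81882 to 93042 CPM in knockout livers and 73584 to 103960 CPM in control livers, and none was at 0. CPM are counts relative to library size, here after correction of that size by edgeR's TMM factors. The summed levels of all 8 cell type lists, hepatocytes included, overlapped between the groups. Single markers were nonetheless on 1 side in several lists, with all 8 endothelial (median log2 fold change -0.53), all 8 stellate (-0.24), all 5 tested erythroid (-0.27) and all 10 Kupffer and macrophage markers (-0.16) lower in knockout livers. None of them passed the test, and every knockout library lay below both controls for 3 endothelial, 3 stellate, 1 erythroid and 0 macrophage markers. This was also so for 8.72% of all genes tested. In the other lists, 1 cholangiocyte marker lay below both controls in every knockout library. Above both lay 2 hepatocyte markers and 1 T and B cell marker, beside 8.16% of all genes. The part of the listed cell types in the levels of the NRF2 genes was not tested. In whole tissue, fewer cells of a type and less RNA per cell cannot be told apart.

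The short sequence NRF2 recognises was looked up first, in the RefSeq promoter windows (GRCm38.p6), which run from 250 bases before a gene's start to 50 after it. The core of the antioxidant response element, TGACNNNGC, was searched on both strands, and no other motif was searched. Of the 8 members with a window, 5 held a match, in 5 of their 10 windows. Over the whole table, 12.4% of 32851 windows and 14.0% of 27025 genes held one. The 5 matches are given here with 10 bases on each side, 5′ to 3′ on the strand of the gene, so that the letters within the element can be compared. Capitals mark the match, which reads as its reverse complement, GCNNNGTCA, in all but Nfe2l2.
Nfe2l2: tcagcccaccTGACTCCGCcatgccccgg
Gclm: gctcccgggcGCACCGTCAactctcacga
Txnrd1: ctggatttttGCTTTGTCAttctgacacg
G6pdx: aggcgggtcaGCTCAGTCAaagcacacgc
Srxn1: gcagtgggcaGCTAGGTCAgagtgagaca

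The stretches lie at chr2:75704885-75704913 on the minus strand for Nfe2l2, chr3:122245413-122245441 on the plus strand for Gclm and chr10:82859104-82859132 on the plus strand for Txnrd1. Those of G6pdx and Srxn1 lie at chrX:74428919-74428947 on the minus strand and chr2:152105542-152105570 on the plus strand. The match began 240 bases before the start in Nfe2l2, 134 before it in Gclm, 92 before it in Txnrd1 and 57 before it in G6pdx. In Srxn1 it began at base 29 of the transcript. Txnrd1 has 3 windows, and the match is in the window of the start at which the deposited row begins. The G6pdx match is before the RefSeq start but within the span of its deposited row (chrX:74409483-74429194), which begins farther upstream. The windows of Keap1, Nqo1 and Cat held no match in these letters.

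None of the 10 genes passed the test between knockout and control livers. With edgeR's quasi-likelihood test and Benjamini-Hochberg adjustment over 16441 genes, the adjusted p was 1.00 for every one of them. At an unadjusted p under 0.05 the count was also 0 of 10, and DESeq2 and limma-voom likewise called 0 of 10. Over all genes the edgeR test called 1 (0.00608%), which was Mtdh. DESeq2 called 18 of the 20612 genes to which it gave an adjusted p (0.0873%). A count of 0 among 10 is thus what the background share would give. The fitted log2 fold changes, knockout over control, ran from -0.03 for Gsr to 0.36 for Gclc. Their median was 0.06, beside 0.01 over all genes tested. Of the 10 values, 9 were above 0, where 52.1% of all genes were. It was 7 when knockout replicate 1 or 2 was left out and 6 when control replicate 1 was, where 53.2%, 50.5% and 53.1% of all genes, in that order, were above 0.

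What the data do limit is the size of a difference. The 95% interval of the fold change lay within 2-fold in either direction for 9 of the 10 genes, the exception being Gclc, and within 1.5-fold for 8, the exceptions being Gclc and Nqo1. Over all genes tested, 74.8% of the intervals lay within 2-fold and 46.6% within 1.5-fold. Keap1 had the narrowest interval of the 10 genes and Gclc the widest.

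**Figure D1:**
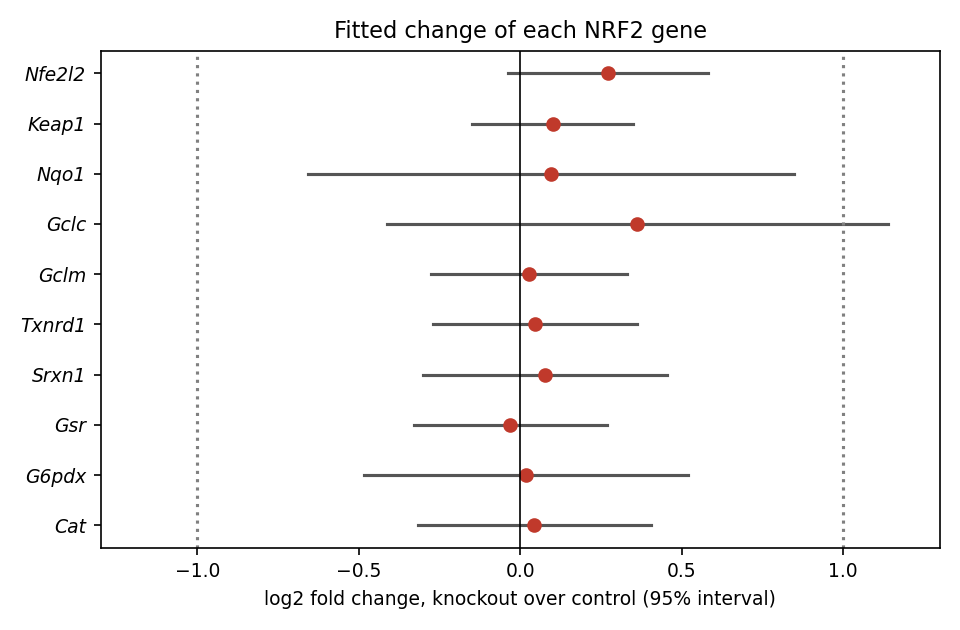
Fitted log2 fold change of each of the 10 genes, knockout over control (points), with its 95% interval from the edgeR fit (lines). The dotted lines mark a 2-fold difference in each direction. All intervals include 0, from that of Keap1 (-0.15 to 0.35) to that of Gclc (-0.41 to 1.14).

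Nfe2l2, the gene of NRF2 itself (ENSMUSG00000015839, chr2:75675513-75704641 on GRCm38), was the member whose libraries separated. It had 92.8, 95.9 and 86.9 CPM in knockout livers, against 69.3 and 82.8 CPM in control livers. Every knockout library thus lay above both control libraries, which was also so for 8.16% of all genes tested. The means were 91.9 ± 4.56 CPM in knockout livers and 76.1 ± 9.55 CPM in control livers (SD, n = 3 and 2), and the gap between the highest control and the lowest knockout library was smaller than that between the controls. The log2 fold change was 0.27 (SE 0.13), with an interval from -0.04 to 0.58 and an unadjusted edgeR p of 0.0751 in a fit across all genes. It remained above 0 in all 13 alternative fits, and ran from 0.15 without control replicate 1 to 0.41 without control replicate 3.

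Keap1 encodes the adaptor that holds NRF2 for degradation (ENSMUSG00000003308, chr9:21229730-21239332). Its level was 37.1, 38.9 and 34.7 CPM in knockout livers and 35.3 and 33.5 CPM in control livers. The groups overlapped, and the fold change of 1.07 had an interval from 0.90 to 1.28. Its exons share 510 bases with Gm16754 on the opposite strand, a gene with at most 39 counts in any library. Per unit length, the ratio of Nfe2l2 to Keap1 transcripts was 3.08, 3.03 and 3.07 in the knockout libraries and 2.41 and 3.04 in the control libraries. On this ratio knockout replicate 2 lay below control replicate 3, and control replicate 1 stood alone below the other libraries.

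Nqo1 encodes the quinone reductase most often used to read out NRF2 activity (ENSMUSG00000003849, chr8:107388225-107403206). It was scarce, with 9.67, 4.56 and 6.12 CPM in knockout livers and 6.78 and 5.89 CPM in control livers. Knockout replicate 1 was the highest library and knockout replicate 2 the lowest, so the controls lay inside the knockout range. The highest library was 2.12 times the lowest, a larger spread than in all but 9.79% of the 3963 genes within 2-fold of its level. The log2 fold change was 0.10 (SE 0.31) and turned to -0.25 without knockout replicate 1.

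Glutathione is made in a first, rate-limiting step by glutamate-cysteine ligase, whose catalytic subunit is Gclc and whose modifier subunit is Gclm. Gclc (ENSMUSG00000032350, chr9:77754535-77794485) had 234, 415 and 190 CPM in knockout livers, against 220 and 214 CPM in control livers. Knockout replicate 2 stood alone, at 1.78 times the next library, while knockout replicate 3 was the lowest of all. The means were 279 ± 119 CPM in knockout livers and 217 ± 4.30 CPM in control livers (SD, n = 3 and 2). The log2 fold change of 0.36 (SE 0.32) became -0.04 without knockout replicate 2. Of the 758 genes within 2-fold of its level, 8.31% had a larger spread over the 5 libraries.

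Gclm (ENSMUSG00000028124, chr3:122245557-122270732) did not show that peak. It had 194, 204 and 219 CPM in knockout livers and 194 and 209 CPM in control livers, a fold change of 1.02 with an interval from 0.83 to 1.26. The groups overlapped almost fully, and 89.6% of the 961 genes within 2-fold of its level varied more. Per unit length, the ratio of Gclc to Gclm was accordingly 2.22, 3.73 and 1.60 in the knockout libraries, against 2.09 and 1.88 in the control libraries. The size of this ratio rests on the deposited summed exon lengths, 3423 bases for Gclc and 6291 for Gclm. Whether the transcripts present have these lengths was not tested. Parts of the Gclm transcript, 103 to 183 bases long, match transcripts of 66 other genes at 90% identity or more. Its exons share 296 bases with Gm17494 on the opposite strand, a gene with at most 40 counts in any library. They also share 244 bases with Gm6061 on the same strand, a gene with 0 counts. Whether these matches and shared bases moved the Gclm counts was not tested.

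Gsr encodes glutathione reductase, which returns oxidised glutathione to its reduced form with NADPH (ENSMUSG00000031584, chr8:33652523-33698163). Its level was 50.9, 58.3 and 47.4 CPM in knockout livers and 53.2 and 53.5 CPM in control livers. Knockout replicate 2 was the highest and knockout replicate 3 the lowest, with both controls between them. Gsr was the one member with a fold change under 1, at 0.98 with an interval from 0.80 to 1.20.

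Txnrd1, the cytosolic thioredoxin reductase (ENSMUSG00000020250, chr10:82859206-82897724), works as the parallel of Gsr in the thioredoxin system. It had 143, 133 and 146 CPM in knockout livers and 125 and 148 CPM in control livers. The control libraries were the lowest and the highest of the 5, and the fold change was 1.03 with an interval from 0.83 to 1.28. The per-length ratio of Txnrd1 to Gsr was 2.27, 1.84 and 2.48 in the knockout libraries and 1.89 and 2.23 in the control libraries, again overlapping.

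Srxn1 encodes sulfiredoxin, which repairs overoxidised peroxiredoxins (ENSMUSG00000032802, chr2:152105516-152111376). Its level was 48.0, 47.7 and 35.5 CPM in knockout livers and 42.9 and 40.0 CPM in control livers. Knockout replicates 1 and 2 lay above the controls and knockout replicate 3 below them. The log2 fold change was 0.08 (SE 0.16), and without knockout replicate 3 it was 0.21.

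G6pdx encodes glucose-6-phosphate dehydrogenase, the entry enzyme of the pentose phosphate pathway and a source of NADPH (ENSMUSG00000031400, chrX:74409483-74429194). It was the scarcest member, with 5.01, 4.53 and 3.62 CPM in knockout livers and 3.92 and 4.74 CPM in control livers, from 116 to 154 counts per library. The groups overlapped, with a fold change of 1.01 and an interval from 0.72 to 1.43. Of its exon bases, 418 are shared with Ikbkg on the opposite strand, a gene with up to 3154 counts in a library. Because the strand setting of the counting is not known, reads of the 2 genes there cannot be told apart. G6pd2, a copy with 93.2% identity over 2332 bases, had at most 10 counts in any library.

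Cat encodes catalase, the peroxisomal enzyme that breaks down hydrogen peroxide (ENSMUSG00000027187, chr2:103453849-103485160). It was by far the most abundant member, with 2681, 2886 and 2673 CPM in knockout livers and 2596 and 2736 CPM in control livers. Control replicate 3 lay inside the knockout range and control replicate 1 below it. The fold change was 1.03, with an interval from 0.80 to 1.32. Of the 65 genes within 2-fold of its level, 98.5% varied more over the 5 libraries. Catalase is also abundant in red cells, whose 7 markers summed to 469, 543 and 424 CPM in knockout livers and 674 and 503 CPM in control livers. Their member Slc4a1 was below the count filter. The part of those cells in the Cat level was not tested.

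**Figure D2:**
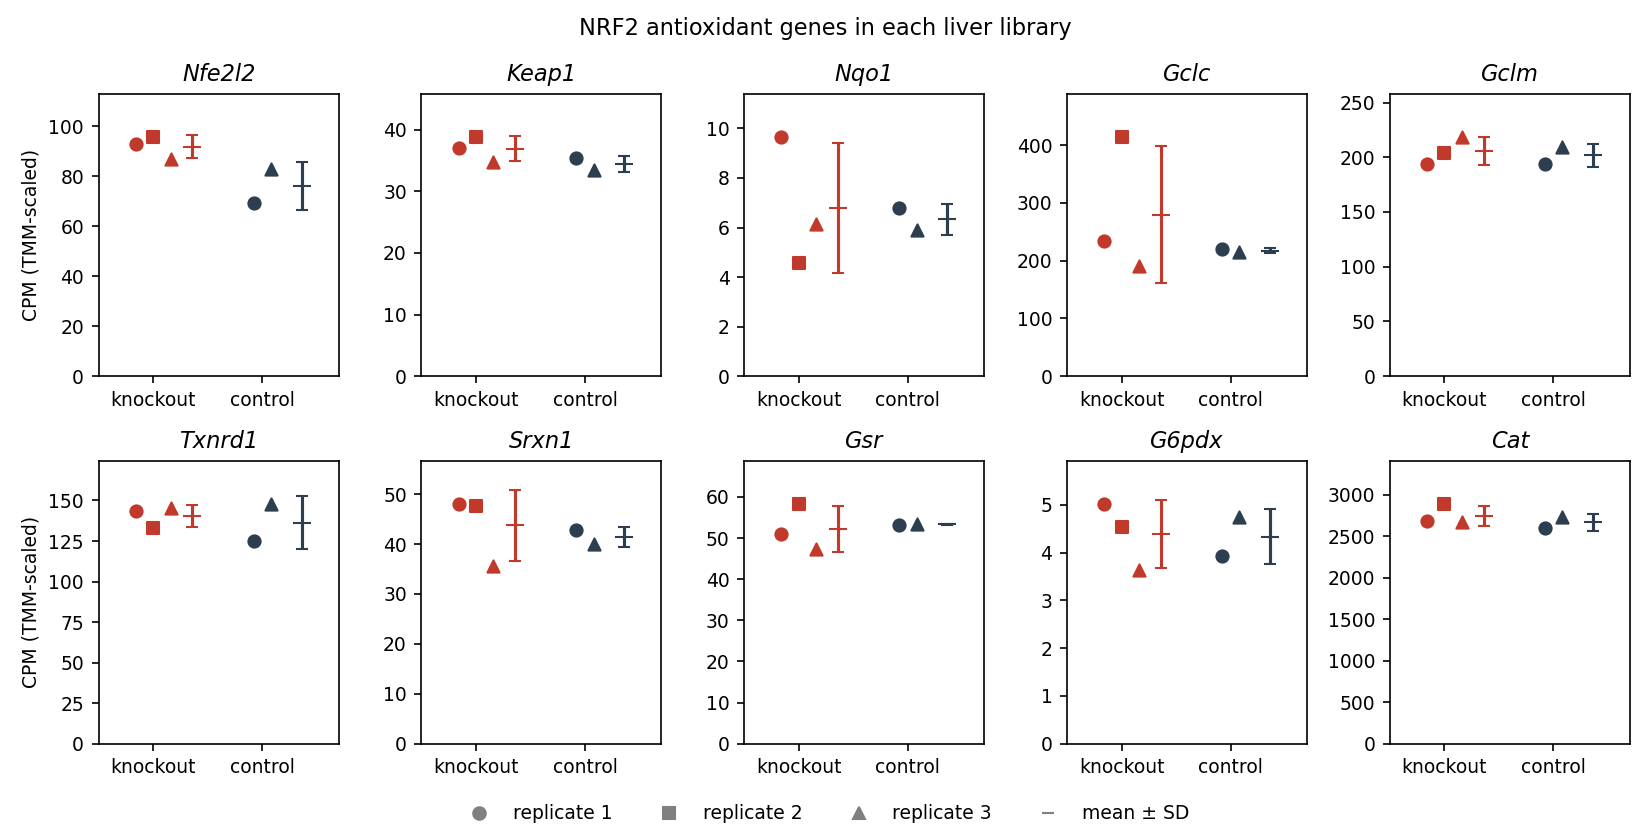
Level of each of the 10 genes in CPM, on axes that start at 0, in the 3 knockout libraries (red) and the 2 distinct control libraries (dark). Each symbol is 1 library, its shape gives the replicate number, and the bar beside each group is the mean with its SD. The groups stand apart for Nfe2l2, and single knockout libraries are high for Gclc (415 CPM, replicate 2) and Nqo1 (9.67 CPM, replicate 1).

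The peaks of Gclc and Nqo1 thus fell in different knockout livers. Of the 10 genes, 5 had their highest CPM in knockout replicate 2, 3 in knockout replicate 1, 1 in knockout replicate 3 and 1 in control replicate 3. Over all genes tested, knockout replicate 2 was the highest library for 3619 of 16441 and knockout replicate 1 for 2487. In Gclc alone among the members the highest library exceeded the next by over 1.5 times, and it was so in knockout replicate 2 for 1.17% of all genes.

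Levels of different genes were compared per length, as TPM, which are counts divided by the deposited gene length and scaled to the same total in every library. That length is summed over a gene's exons, and whether the transcripts present have it was not tested. TPM carry no TMM factor and are scaled by the total of the length-divided counts, so their spread between libraries differs from that of the CPM above. Nfe2l2, for example, had 40.8 and 39.3 TPM in control replicates 1 and 3, against 69.3 and 82.8 CPM. Cat averaged 2178 ± 265 TPM in knockout livers and 2052 ± 238 TPM in control livers (SD, n = 3 and 2 here and below). Gclc followed with 171 ± 80.9 TPM in knockout and 128 ± 22.1 TPM in control livers, and Txnrd1 with 85.0 ± 7.79 TPM in knockout and 79.7 ± 2.68 TPM in control livers. The catalase transcript therefore outnumbered the next member more than any other neighbouring pair in this order.

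Gclm came next, with 67.3 ± 3.12 TPM in knockout and 64.4 ± 6.46 TPM in control livers. Nfe2l2 had 50.2 ± 7.15 TPM in knockout and 40.0 ± 1.11 TPM in control livers. Below it, Gsr had 39.4 ± 7.12 TPM in knockout and 39.0 ± 5.84 TPM in control livers. The regulator Nfe2l2 thus stood in the middle of the order. Srxn1 had 32.4 ± 8.14 TPM in knockout and 29.7 ± 5.98 TPM in control livers. Keap1 had 16.4 ± 2.39 TPM in knockout and 14.9 ± 2.83 TPM in control livers. Nqo1 followed with 9.13 ± 4.12 TPM in knockout and 8.30 ± 2.07 TPM in control livers. The widest relative spread within the knockout group was that of Gclc and Nqo1. G6pdx came last, with 2.98 ± 0.75 TPM in knockout and 2.81 ± 0.06 TPM in control livers. The order of the 10 genes was the same in both groups. The ranges over the 5 libraries overlapped between Nfe2l2 and Gsr, between Gsr and Srxn1 and between Keap1 and Nqo1. Within single libraries, Gsr lay above Srxn1 and Keap1 above Nqo1 in 5 of 5, and Nfe2l2 lay above Gsr in 4 of 5, the exception being control replicate 1. Catalase exceeded G6pdx by 730-fold in control livers.

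**Figure D3:**
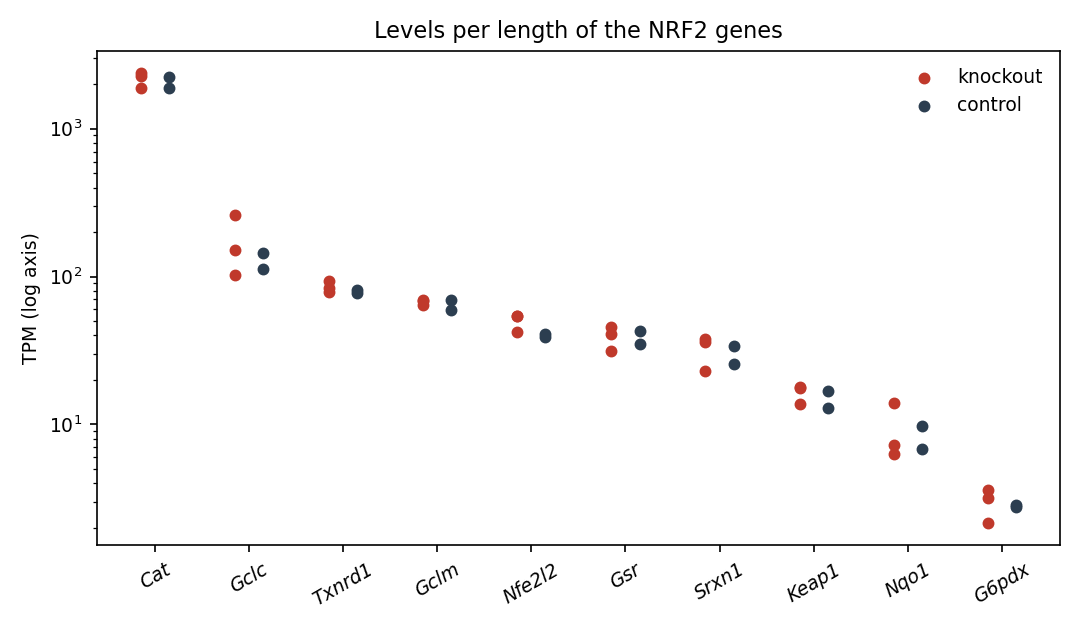
Level per length of the 10 genes in TPM on a log axis, ordered by the mean over the knockout libraries, with 1 point per library (knockout red, left, and control dark, right). The points run from 2.16 TPM for G6pdx to 2373 TPM for Cat, and knockout and control points overlap for every gene but Nfe2l2.

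Around these members, the wider pathway was described by 7 lists holding 122 further genes, of which 118 passed the filter on low counts. None was called by edgeR, DESeq2 or limma-voom over all genes, beside the background of 0.00608% for edgeR. At an unadjusted p under 0.05 there were 5 (4.24%, beside 3.43% of all genes): Tkt, Hmox1, Blvrb, Gsta2 and Cth. Of these, Gsta2 was picked once its values were known. Of the 118 genes, 66 were higher and 52 lower, with a median log2 fold change of 0.03. Every knockout library lay above both controls in 18 of them (15.3%, beside 8.16% of all genes) and below both in 8 (6.78%, beside 8.72%).

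Among 30 other NRF2 targets, 28 passed the filter, and Gpx2 and Slc7a11, the cystine carrier, did not. Of the 28, 17 were higher and 11 lower, none past the test, with a median log2 fold change of 0.12. Tkt, the transketolase of the pentose phosphate pathway, had 160, 163 and 153 CPM in knockout livers and 118 and 120 CPM in control livers. Its groups were well apart, with every knockout library above both controls, as in 8.16% of all genes tested. The log2 fold change was 0.41 (SE 0.11), with an unadjusted p of 0.00973 in the edgeR fit and an adjusted p of 1.00. DESeq2 gave Tkt an adjusted p of 0.274.

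Hmox1, the inducible haem oxygenase and a classic NRF2 target, lay on the other side. It had 13.1, 12.8 and 9.56 CPM in knockout livers, against 17.0 and 16.1 CPM in control livers. All knockout libraries were below both controls, as in 8.72% of all genes tested. The log2 fold change of -0.48 (SE 0.17) did not pass over all genes (edgeR adjusted p of 1.00). Blvrb, the gene of biliverdin reductase B, had 85.6, 77.1 and 91.2 CPM in knockout livers and 60.3 and 72.1 CPM in control livers. Its log2 fold change was 0.35 (SE 0.14). Haem oxygenase is also a gene of macrophages, and the 10 Kupffer cell and macrophage markers summed to 305 to 365 CPM in knockout livers and 317 to 412 CPM in control livers. All 10 had a log2 fold change below 0, none past the test and none at 0 counts, and their part in the Hmox1 level was not tested.

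The summed level of the 30 targets was 7616, 7249 and 7163 CPM in knockout livers and 6635 and 6610 CPM in control livers. No knockout library overlapped the controls in this sum, which is dominated by a few abundant genes. Abcc2, the canalicular export pump for glutathione conjugates, had 1244, 998 and 885 CPM in knockout livers and 842 and 845 CPM in control livers, and the ferritin light chain Ftl1 had 1169, 1285 and 1116 CPM in knockout livers and 915 and 1003 CPM in control livers. These genes were chosen after their values were seen, and neither passed the test. The summed level stood apart between the groups in 2 of the 7 lists, this one and peroxisome biogenesis, and overlapped in 5. Among single genes, 16.9% of all tested stood apart in either direction, and no such share was computed for sums.

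In the NADPH supply list, 10 of 16 genes were higher and 6 lower, with a median log2 fold change of 0.09 and none past the test. Tkt had the smallest p and Me1, the cytosolic malic enzyme, the next. Me1 had 297, 278 and 151 CPM in knockout livers and 103 and 193 CPM in control livers, so the groups overlapped. Pgd, which follows G6pdx in the pentose phosphate pathway, had 52.6, 59.9 and 37.2 CPM in knockout livers and 38.4 and 42.4 CPM in control livers. Me1 and Pgd were both highest in knockout replicates 1 and 2. So was the summed level of the 7 adipocyte markers. This sum was 23.9, 31.8 and 11.4 CPM in knockout livers and 12.3 and 14.0 CPM in control livers. Of the single markers, Plin4, Cidea and Cfd were highest in knockout replicates 1 and 2. Fabp4 was not, being higher in control replicate 1 than in knockout replicate 2. The defining markers Adipoq, Plin1 and Lep had at most 1 count each. The part of the 7 adipocyte markers in the Me1 and Pgd levels was not tested.

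Of 22 glutathione handling genes that passed the filter, 12 were higher and 10 lower (median log2 fold change 0.01), none past the test. Cth, the cystathionine gamma-lyase that makes cysteine for glutathione, had 439, 279 and 384 CPM in knockout livers and 568 and 480 CPM in control livers. Its knockout libraries lay below both controls, as in 8.72% of all genes tested. The log2 fold change was -0.51 (SE 0.21), with an edgeR adjusted p of 1.00. Glrx, a glutaredoxin, had 34.2, 31.7 and 39.2 CPM in knockout livers against 21.5 and 31.4 CPM in control livers. Gpx4, the lipid hydroperoxide peroxidase, had 25.3, 22.2 and 20.6 CPM in knockout livers against 19.2 and 18.6 CPM in control livers. Both were higher in 3 of 3 knockout libraries than in either control, as were 8.16% of all genes tested. Their log2 fold changes were 0.41 (SE 0.19) for Glrx and 0.26 (SE 0.13) for Gpx4, and neither passed the test. Both were picked by p within their list, which favours such a separation.

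Thioredoxin and peroxiredoxin genes were split, with 10 higher and 9 lower of 19 (median log2 fold change 0.06), none past the test. Txnrd3, a relative of Txnrd1, was at a log2 fold change of 0.27 (SE 0.13). Sesn1, a stress-inducible sestrin, had -0.32 (SE 0.15), and Msrb3, a methionine sulfoxide reductase, had -0.37 (SE 0.20). Among the 11 genes that remove superoxide and peroxide, 9 were higher and 2 lower, by small amounts (median 0.10), and none passed. Sod1, the cytosolic superoxide dismutase, had 394, 359 and 394 CPM in knockout livers and 351 and 327 CPM in control livers. For Prdx6, a peroxiredoxin, it was 0.18 (SE 0.15) on the log2 scale, with overlapping groups.

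The 19 regulators of NRF2 were lower in 13 and higher in 6 (median log2 fold change -0.07), and none passed the test or had an unadjusted p under 0.05. Cul3, the scaffold of the ligase that works with KEAP1, had 66.1, 65.0 and 71.8 CPM in knockout livers and 69.5 and 72.4 CPM in control livers. Mafg, a partner of NRF2 on DNA, had 111, 103 and 114 CPM in knockout livers and 108 and 117 CPM in control livers. Cul3 and Mafg, chosen for their role after their values were seen, overlapped between the groups. By p the leading genes were Dcaf11, a receptor of another ubiquitin ligase, with a log2 fold change of -0.22 (SE 0.14), the NRF2 relative Nfe2l1 with 0.25 (SE 0.17), and the ligase Syvn1 with -0.17 (SE 0.14).

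Genes of peroxisome biogenesis were listed because catalase is a peroxisomal enzyme. Of 17, 13 were higher and 4 lower (median log2 fold change 0.12), none past the test. Their summed level was 1933, 1732 and 1795 CPM in knockout livers and 1464 and 1669 CPM in control livers. Abcd3, a fatty acyl transporter of the peroxisome membrane, made up much of this sum, with a log2 fold change of 0.31 (SE 0.17). Pex19, an import factor for membrane proteins, had 162, 143 and 144 CPM in knockout livers and 120 and 134 CPM in control livers.

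**Figure D4:**
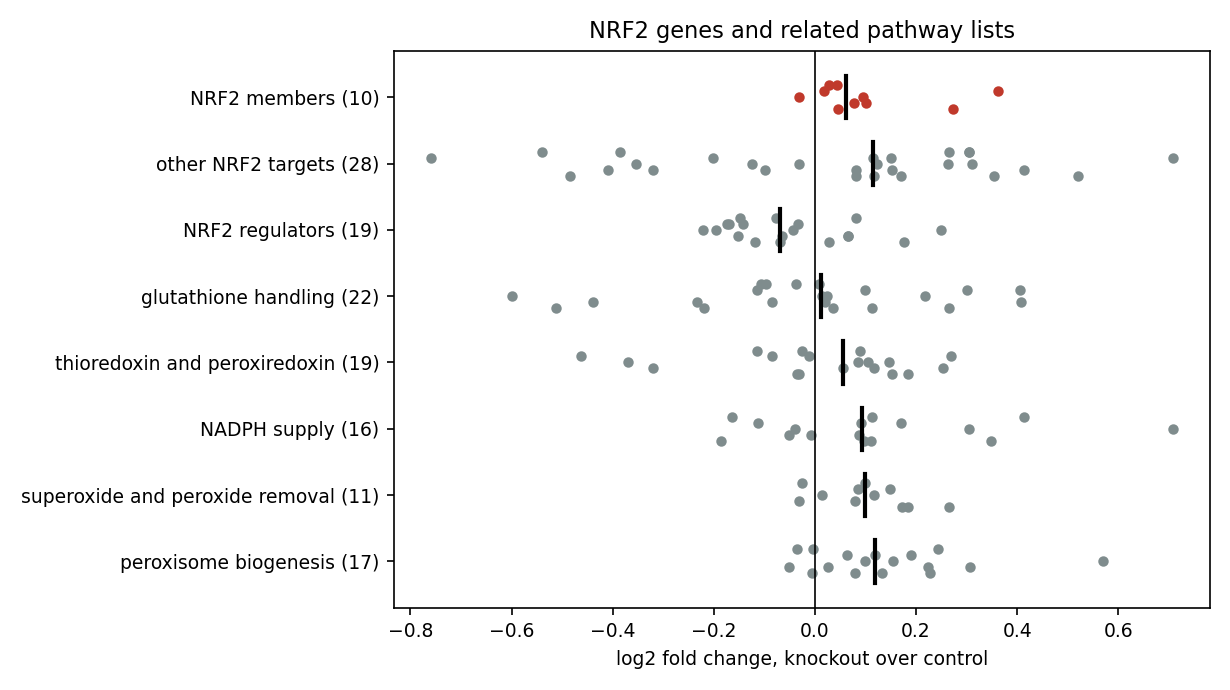
Fitted log2 fold change, knockout over control, of every gene that passed the filter on low counts, in the 10 NRF2 genes (red) and the 7 pathway lists (grey), with the number of genes in brackets and the median as a black bar. Medians lie between -0.07 for the NRF2 regulators and 0.12 for peroxisome biogenesis. Genes of 2 lists are drawn in both.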

How the data were processed

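Raw counts per gene, as whole numbers, were deposited by the authors in 1 table, which also gives each gene's exon coordinates and summed exon length per the file headers. FastQC, Trimmomatic 0.33, featureCounts 1.4.6-p4 and Subread 1.4.6-p4 are named in the submitters' processing notes, with the builds mm10 and GRCm38 (the same assembly). Whether the counting used strand, and which annotation it used, is not given in the sources used here. GENCODE vM21 gave symbols for 46488 of 46983 rows. The 6 columns held 5 distinct libraries, which the labels call biological replicates.

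The filter was filterByExpr and the scaling TMM. The test was edgeR's two-sided quasi-likelihood F test on 3 knockout and 2 control libraries, with Benjamini-Hochberg adjustment over 16441 genes and a threshold of 0.05. Standard errors and 95% intervals were derived from the F statistic. Copies of a member were sought with BLAST+ 2.17.0 (at least 90% identity over 100 bases). Versions were edgeR 4.0.16, DESeq2 1.42.0 and limma 3.58.1 under R 4.3.3, and Python 3.11.15.

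Members and lists were chosen with earlier results of these data known. From each pathway list the text names the 3 genes with the smallest p, 19 genes in all of which 1 is not reported here, and says where it names others for another reason. Alternatives covered scaling, filter, test, each library left out, all 6 columns and a replicate block.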

Additional observations from a re-analysis of the deposited data

How the results depend on the processing

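The 10 members were recomputed under 13 alternatives (130 values), and 0 passed the threshold in any of them. Of these values, 117 kept the direction and 13 turned it. By leaving out a library, G6pdx ranged from -0.12 to 0.16, Gclc from -0.037 to 0.58, Gclm from -0.031 to 0.085, Gsr from -0.12 to 0.033, Nqo1 from -0.25 to 0.32, Srxn1 from 0.01 to 0.21 and Txnrd1 from -0.077 to 0.18 (log2 fold change). The value turned without knockout replicate 1 for Nqo1 (-0.25) and G6pdx (-0.088), without knockout replicate 2 for Gclc (-0.037) and G6pdx (-0.0053) and without knockout replicate 3 for Gclm (-0.021) and Gsr (0.033). Without control replicate 1 it turned for G6pdx (-0.12), Gclm (-0.031) and Txnrd1 (-0.077). With upper-quartile scaling G6pdx was at -0.0028, and with the replicate number as a block G6pdx was at -0.015, Gclc at -0.044 and Srxn1 at -0.0040. The cause was not tested. The members' median ranged from 0.02 to 0.14 without single libraries. All 247 values of the 19 pathway genes with the smallest p in their lists kept their direction. These genes were picked by p in the same libraries, which favours a stable direction, so their count cannot be set beside that of the members. Of the 19 genes, 13 moved by over 1.5 times without 1 library. Without control replicates 1 and 3 in turn, Glrx ranged from 0.15 to 0.71, Nfe2l1 from 0.051 to 0.48, Me1 from 0.32 to 1.24, Dcaf11 from -0.35 to -0.088, Prdx6 from 0.063 to 0.32 and Abcd3 from 0.16 to 0.47. Without control replicate 1, Blvrb was at 0.23, Sesn1 at -0.19 and Pex19 at 0.16. Pgd ran from 0.15 to 0.48 without knockout replicate 2 or 3, Syvn1 from -0.30 to -0.11 without knockout replicate 1 or 2 or control replicate 1, and Msrb3 was at -0.56 without knockout replicate 2.

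Over all genes, the count of lower genes was 3 without a filter on low counts, 11 with DESeq2 (which also called 7 higher) and 1 to 6 without single libraries, 6 without control replicate 3, which leaves a single control assumed to vary like the knockouts. With the replicate block it was 0, as Mtdh (-4.28) had an adjusted p of 0.0517 by edgeR. That block rests on 2 shared numbers, whose deviations from the group means correlated at 0.06 (replicate 1) and 0.155 (replicate 3). Knockout replicate 2 and control replicate 1, which share no number, correlated at 0.11. With 2 controls, the values of a knockout library against them differ only in sign. The replicate numbers are not stated to pair the mice. Counting error bears most on G6pdx and Nqo1, with as few as 116 and 151 counts in a library.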

Other observations

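Some further NRF2-linked genes varied more between livers of 1 group than between the groups, and they were picked after their values were seen. Gstp1, a glutathione transferase, had 315, 251 and 772 CPM in knockout livers and 442 and 584 CPM in control livers. Osgin1 had 66.9, 152 and 155 CPM in knockout livers and 216 and 110 CPM in control livers. Cyp2a5, a cytochrome P450, had 583, 233 and 592 CPM in knockout livers and 378 and 403 CPM in control livers. Txnip, which binds and inhibits thioredoxin, had 138, 67.1 and 224 CPM in knockout livers and 101 and 209 CPM in control livers. Sqstm1, whose product binds KEAP1, was highest where Gclc was, with 277, 399 and 224 CPM in knockout livers and 306 and 261 CPM in control livers. Of the 28 other NRF2 targets tested, 9 (32.1%) were highest in knockout replicate 2, beside 3619 of all 16441 genes, and none of the 9 exceeded the next library by over 1.5 times.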
